A study of Mus musculus with 6 samples.

Results

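The 40 genes described here are transcripts of the endoplasmic reticulum (ER) stress response and of the ATF4 response among the 49592 genes of the deposited table. They comprise 19 genes of the ER side, of which 14 encode chaperones and folding enzymes and 5 encode stress sensors and regulators. The other 21 are ATF4-type genes, 9 of amino acid and folate metabolism and 12 stress regulators. The set was drawn up by gene function, with earlier results of these data known, and matched by symbol. The RNA was from C2C12, an established mouse line of myoblasts that fuse into multinucleated myotubes when serum is lowered. After 3 days in DMEM with 2% HS, the myotubes of 3 libraries had received 10 ng/ml TWEAK, a TNF superfamily cytokine, for 12 h and those of the other 3 had been left untreated. Trials 1, 2 and 3 gave each group 1 library apiece, and both groups shared the line and the medium. Whether a trial was a culture of its own is not stated in the labels, and the p-values below therefore cover only the spread among these 6 libraries, which may be technical.

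The ER folds secreted and membrane proteins, and the chaperone BiP (gene Hspa5) keeps its stress sensors in check. When unfolded proteins build up, the sensors IRE1 (Ern1), ATF6 (Atf6) and PERK (Eif2ak3) raise chaperone genes through the factors XBP1 and cleaved ATF6, while PERK phosphorylates eIF2 and slows translation. Phosphorylated eIF2 favours translation of ATF4, which drives genes of amino acid synthesis and transport and a group of stress regulators; other eIF2 kinases feed the same route, known as the integrated stress response (ISR). Myotube formation is known to engage parts of this response. The splicing of Xbp1 mRNA, cleavage of ATF6 protein and translation of Atf4 are not read by gene-level RNA values.

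Expression was measured as FPKM, fragments scaled to transcript length and by a factor for each library. The libraries were poly(A)-selected and held 29981239 to 40921672 reads, as recovered from the FPKM steps. Of 8 muscle markers, all were above the expression minimum, with a summed level of 7185 to 7701 FPKM in TWEAK libraries and 7685 to 8776 FPKM in untreated ones. Of the 8, Myh3 and Actn2 were called lower with TWEAK, and log2 fold changes were above 0 for 3, Myog (0.23), Des (0.20) and Mymk (0.16), and below 0 for 5. Among markers of other cells, the 6 of macrophages and leukocytes summed to 1.36 to 1.64 FPKM with TWEAK and 1.45 to 1.51 FPKM without, nearly all of it Cd68, and Adgre1 and Cd3e were listed at 0 in every library. The 4 endothelial markers summed to at most 0.0796 FPKM with TWEAK and 0.104 FPKM without, and the 5 adipocyte markers to at most 0.0419 and 0.0216 FPKM.

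Promoter motifs of the 2 arms are shown because they describe the genes by a feature that the expression values do not enter. The genes were chosen as members of these responses, which can itself bring such motifs with it. The shares below are therefore a description and no test. The ER stress response element ERSE, searched as CCAAT and CCACG 9 bases apart on either strand, lay in the 300 bases around the start site (250 before it and 50 after it) of 7 of 16 ER-side genes with a promoter in the RefSeq table. That is 43.8% of them, against 0 of 20 ATF4-type genes and 0.137% of all 27025 genes in the table. The CARE core, the C/EBP-ATF response element bound by ATF4, searched as TGATGNAA, lay in 7 of the 20 ATF4-type promoters (35.0%), against 1 of 16 ER-side promoters and 4.51% of all genes. ERSE-II, searched as ATTGG and CCACG with 1 base between them, lay in 2 ER-side promoters, those of Dnajb11 and Herpud1, and in 0.0444% of all; its CCACG is part of the same letters as ERSE. The unfolded protein response element TGACGTGG was in 0 of the 36 promoters and in 0.714% of all. A match is a string of letters in this window and was not tested for binding.

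The 250 bases upstream of the start are printed below for 2 ER-side genes and 2 ATF4-type genes, 5′ to 3′ on the gene's strand, with the ERSE letters or the CARE core in capitals. They come from RefSeq on build GRCm38.p6, at chr2:34771840-34772089 (plus strand) for Hspa5, chr14:118937682-118937931 (plus) for Dnajc3, chr6:7693210-7693459 (minus) for Asns and chr2:119350992-119351241 (plus) for Chac1. The ERSE begins at position -65 in Hspa5 and at -105 in Dnajc3, and the CARE core at -23 in Asns and, on the opposite strand, at -193 in Chac1.
Hspa5: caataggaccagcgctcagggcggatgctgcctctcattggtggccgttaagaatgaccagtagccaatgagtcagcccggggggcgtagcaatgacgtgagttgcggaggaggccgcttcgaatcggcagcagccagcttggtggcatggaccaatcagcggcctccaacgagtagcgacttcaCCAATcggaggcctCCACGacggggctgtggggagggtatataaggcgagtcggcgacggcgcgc
Dnajc3: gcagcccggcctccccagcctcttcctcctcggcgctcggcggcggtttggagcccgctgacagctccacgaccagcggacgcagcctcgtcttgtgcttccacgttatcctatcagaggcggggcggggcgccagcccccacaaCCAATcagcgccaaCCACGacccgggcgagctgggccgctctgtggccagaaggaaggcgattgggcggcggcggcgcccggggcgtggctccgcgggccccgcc
Asns: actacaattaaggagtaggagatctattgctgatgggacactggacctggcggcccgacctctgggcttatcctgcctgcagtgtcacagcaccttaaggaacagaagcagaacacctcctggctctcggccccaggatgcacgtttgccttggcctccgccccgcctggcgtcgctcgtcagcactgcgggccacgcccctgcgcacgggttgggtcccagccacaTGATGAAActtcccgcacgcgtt
Chac1: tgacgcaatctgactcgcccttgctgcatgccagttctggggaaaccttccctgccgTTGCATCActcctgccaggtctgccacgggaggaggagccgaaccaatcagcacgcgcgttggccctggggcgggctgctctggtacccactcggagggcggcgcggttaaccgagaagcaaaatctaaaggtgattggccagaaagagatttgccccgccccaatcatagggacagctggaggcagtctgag

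In the fit without a trial term, few of these transcripts differed between TWEAK and untreated libraries beyond the spread of the libraries. Of the 40 genes, 39 reached a mean of 0.5 FPKM and were tested, and 3 passed an adjusted p of 0.05 in limma: Shmt2 and Ddit4 rose, and Atf6 fell. That is 7.69% of those tested, beside 15.1% called among all 12770 genes tested (8.98% higher and 6.10% lower with TWEAK). The median log2 fold change was -0.08 over the 39 genes and 0.01 over all genes, and the values ran from -0.56 (Chac1) to 0.37 (Ddit4). The 95% interval of the log2 fold change lay within 0.5 of 0, a 1.41-fold change, for 32 of the 39 genes (82.1%, against 79.7% of all genes). The groups did not overlap for 7 of the 39 (17.9%, against 35.9% of all genes), 2 with higher and 5 with lower values in TWEAK libraries. In bulk RNA, a change in the share of cells that express a gene and a change in RNA per cell cannot be told apart.

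In the replicate-block fit, which adds the trial as a term, 9 of the 39 passed (23.1%, against 27.9% of all genes, 15.4% higher and 12.5% lower): Shmt2, Ddit4 and Sesn2 rose, and Atf6, Xbp1, Dnajc3, Psat1, Chac1 and Vldlr fell. The authors' deposited table called 6 of the 40 at an adjusted p under 0.05 (15%, against 20.6% of its genes, 11.2% higher and 9.38% lower), which were Shmt2 and Ddit4 higher and Atf6, Xbp1, Dnajc3 and Chac1 lower. With limma-voom on recovered reads 4 passed, Xbp1 joining the 3, against 16.6% of all genes (9.54% higher and 7.08% lower). The count of 3 rests on single libraries: leaving out TWEAK replicate 2 or untreated replicate 1 gave 0 (with 5 and 6 genes under an unadjusted p of 0.05, and 6.61% and 8.61% of all genes called), and leaving out untreated replicate 3 gave 1 (10.2% of all genes). Trial 3 stood apart for many of these genes, as described further on; without its libraries, a setting added after seeing the data, 3 genes passed in limma (7.69%, against 12.6% of all genes, 6.77% higher and 5.83% lower). These were Ddit4 (adjusted p = 0.0205), which rose, and Xbp1 (0.0191) and Chac1 (0.0217), which fell, while Atf6 (0.0871) and Shmt2 (0.119) did not pass.

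**Figure D1:**
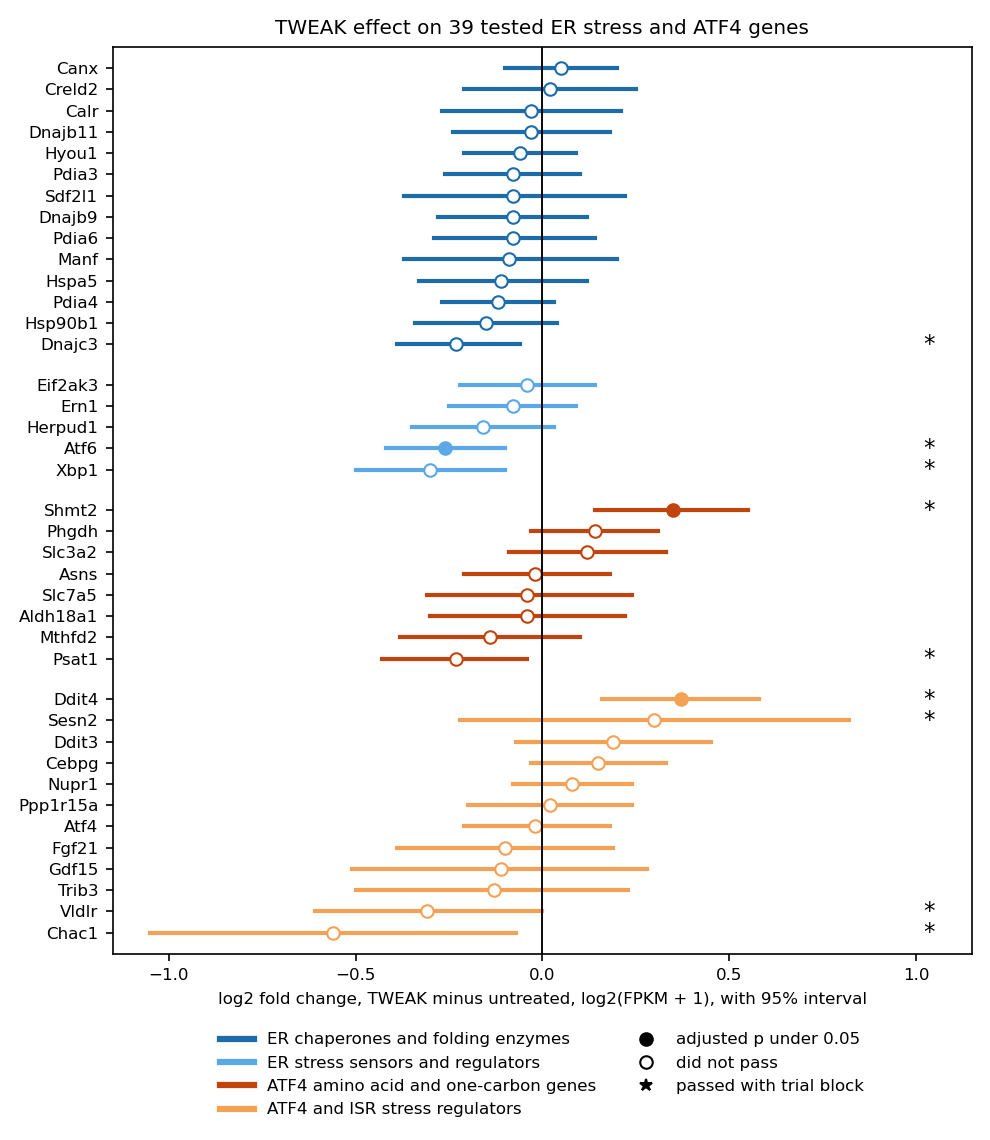
Log2 fold change of each of the 39 tested genes, the difference between TWEAK and untreated libraries in log2(FPKM + 1), with its 95% limma interval (n = 3 libraries per group). Filled points passed an adjusted p of 0.05 and asterisks mark the 9 that passed with the trial as a block; Shmt2 and Ddit4 lie to the right, and Atf6, Xbp1 and Chac1 to the left.

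The ER chaperones and folding enzymes were abundant in both groups, and none passed the limma test. Calreticulin (Calr), a calcium-binding lectin chaperone, was the highest, averaging 583 ± 74.5 FPKM in TWEAK libraries and 593 ± 34.9 FPKM in untreated ones (± gives the SD over 3 libraries here and below). Next came Hsp90b1, the ER paralog of HSP90, at 228 ± 18.6 and 253 ± 11.7 FPKM, and Hspa5. The lowest were the BiP co-chaperones Dnajb9, at 19.4 ± 1.03 FPKM with TWEAK and 20.7 ± 2.49 without, and Dnajc3. With limma 0 of the 14 passed, against 15.1% of all tested genes, while 1 was under an unadjusted p of 0.05 (3871 of all 12770 were). With the replicate block 1 passed (7.14%, against 27.9% of all genes). With limma-voom on recovered reads 0 passed, against 16.6% of all genes. The authors' deposited table called 1, against 20.6% of its genes. Each time the 1 was Dnajc3. Their median log2 fold change was -0.08, with 12 of 14 below 0 (6096 of all 12770 were), and all 14 intervals lay within 0.5 of 0. Several of these values changed sign when single libraries were left out, as listed at the end.

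Hspa5 stood at 197, 193 and 244 FPKM in TWEAK libraries of trials 1, 2 and 3, and at 216, 232 and 232 FPKM in the untreated ones. The TWEAK library of trial 3 was the highest of all 6 and the other TWEAK libraries were the lowest, so the groups overlapped. Its log2 fold change was -0.11 (SE 0.10, 95% interval -0.33 to 0.12, limma adjusted p = 0.511). Dnajc3, a J-domain protein that works with BiP and also binds PERK, had 17.7, 18.2 and 19.9 FPKM with TWEAK and 21.2, 21.2 and 23.5 FPKM without. Every TWEAK library was below every untreated one, by a log2 fold change of -0.23 (SE 0.07, limma adjusted p = 0.0691, or 0.0137 in the replicate-block fit).

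The remaining chaperones had fold changes no further from 0 than that of Hsp90b1, -0.15 on the log2 scale (95% interval -0.34 to 0.04, limma adjusted p = 0.273). The thiol oxidoreductase Pdia3, which serves the lectin chaperones, was at 154 ± 13.6 FPKM with TWEAK and 163 ± 7.05 without. Pdia6 and Pdia4, both protein disulfide isomerases, were at 171 ± 22.2 and 48.2 ± 2.73 FPKM with TWEAK and at 180 ± 5.27 and 52.3 ± 1.50 FPKM without. Canx, the membrane-bound lectin chaperone calnexin, at 164 ± 4.19 FPKM with TWEAK and 158 ± 5.43 without, and Creld2, at 37.3 ± 5.09 and 36.6 ± 3.18 FPKM, had fold changes above 0, at 0.05 and 0.02. Dnajb11, a BiP co-chaperone, Hyou1, a nucleotide exchange factor for BiP, the secreted factor Manf and Sdf2l1 had log2 fold changes from -0.09 to -0.03. Manf carries the deposited annotation's tag for overlapping loci.

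Transcripts of the sensors and of Xbp1 and Herpud1 all had log2 fold changes below 0 (as did 6096 of all 12770 genes), and Atf6 passed the test. Of these 5 genes 1 fell and 0 rose, while 6.10% of all tested genes fell, and the median log2 fold change was -0.16. With the replicate block 2 of them fell, against 12.5% of all genes, and 2 fell in the authors' deposited table, against 9.38% of its genes. Atf6, the ER membrane-bound factor that becomes a transcription factor when cleaved (GRCm39 chromosome 1, 170532243 to 170695340), had 28.2, 25.8 and 24.5 FPKM with TWEAK and 30.7, 32.8 and 30.7 FPKM without. The groups did not overlap, and the log2 fold change was -0.26 (SE 0.07, 95% interval -0.42 to -0.10, limma adjusted p = 0.0416). This call was lost without TWEAK replicate 2 (adjusted p = 0.142) or 3 (0.0863) and without untreated replicate 1 (0.0985), 2 (0.131) or 3 (0.0763). Over the 6 fits that each left out 1 library, the log2 fold change of Atf6 ran from -0.309 to -0.213.

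Xbp1, the target of IRE1 splicing (chromosome 11, 5470659 to 5475893), was at 47.3, 41.9 and 53.6 FPKM in TWEAK libraries and at 57.9, 59.9 and 57.6 FPKM in untreated ones. All TWEAK values were below all untreated values, which lay close together. The log2 fold change of -0.30 (SE 0.09) missed the threshold at a limma adjusted p of 0.0521 and passed with the replicate block at 0.0108 and with limma-voom on recovered reads at 0.0471. The sensor kinases themselves were low: Ern1 was at 6.11 ± 0.445 FPKM with TWEAK and 6.50 ± 0.0111 in untreated libraries (limma adjusted p = 0.513), and Eif2ak3 at 6.09 ± 0.333 and 6.28 ± 0.515 FPKM (0.795). Herpud1, which helps to assemble the complex for ER-associated degradation, was at 69.2 ± 6.06 FPKM with TWEAK and 77.4 ± 5.24 without, with overlapping groups and a limma adjusted p of 0.233.

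**Figure D2:**
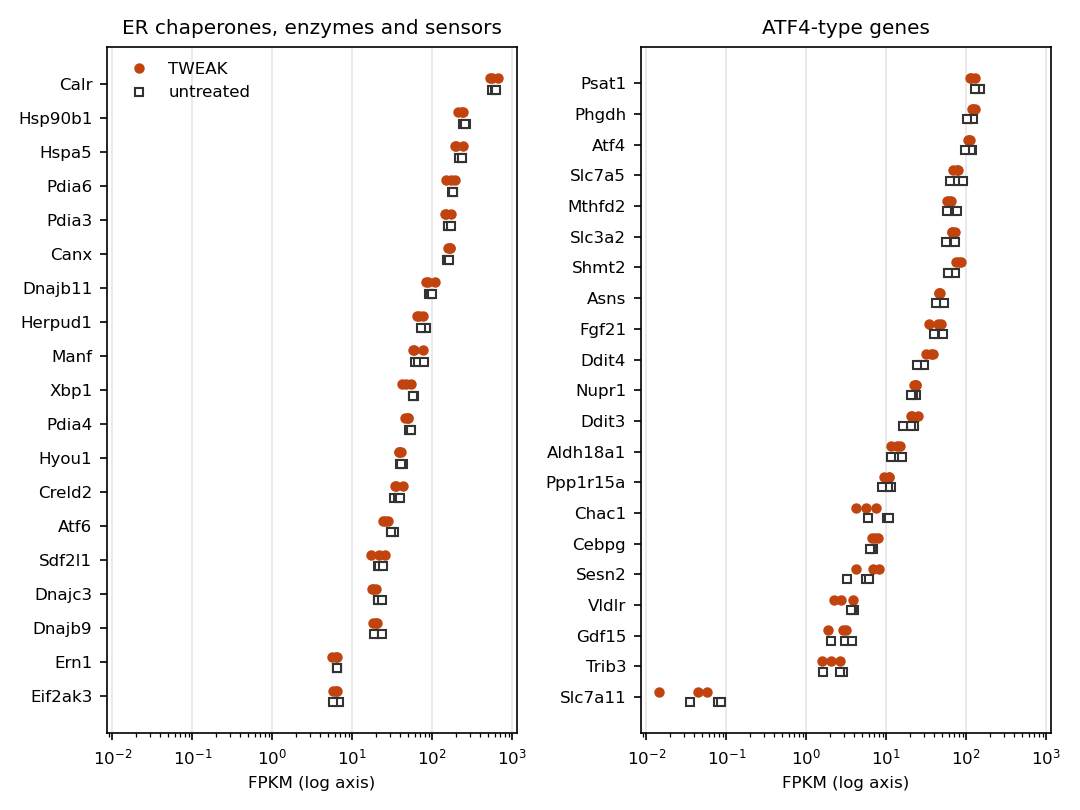
FPKM of each library on a log axis, TWEAK as filled circles above untreated as open squares, for the ER-side genes (left) and the ATF4-type genes (right), ordered by untreated mean. Levels ran from Calr at 583 FPKM with TWEAK down to Slc7a11 at 0.0384, and the symbols of both groups lie close together for most genes.

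Genes of amino acid and folate metabolism that ATF4 drives had fold changes on both sides of 0, with a median log2 fold change of -0.03. Of 8 tested, Shmt2 rose and 0 fell in limma (12.5% called, against 15.1% of all tested genes). With the replicate block 2 passed (25.0%, against 27.9% of all genes). Shmt2 encodes the mitochondrial enzyme that turns serine into glycine and charges folate (chromosome 10, 127352992 to 127358313). It had 74.7, 85.5 and 81.4 FPKM with TWEAK and 59.8, 71.5 and 58.4 FPKM without. The groups did not overlap and every trial had the TWEAK library higher, by 1.25-fold, 1.20-fold and 1.39-fold. The log2 fold change was 0.35 (SE 0.09, 95% interval 0.14 to 0.55, limma adjusted p = 0.0329). The call was lost without TWEAK replicate 2 (adjusted p = 0.130) or 3 (0.0649) and without untreated replicate 1 (0.119) or 3 (0.102). Over the 6 fits that each left out 1 library, the log2 fold change of Shmt2 ran from 0.295 to 0.439.

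Psat1, an enzyme of serine synthesis, differed in the opposite direction, with 130, 115 and 112 FPKM in TWEAK libraries and 146, 147 and 127 FPKM in untreated ones. The groups overlapped, since TWEAK in trial 1 was above untreated in trial 3, and within each trial the TWEAK library was lower. The log2 fold change was -0.23 (SE 0.09, limma adjusted p = 0.104, or 0.0236 in the replicate-block fit). Phgdh, the first enzyme of the same route, was at 122 ± 4.15 FPKM with TWEAK and 111 ± 9.01 in untreated libraries (limma adjusted p = 0.259). Mthfd2, which follows Shmt2 in the mitochondrial folate pathway, was at 60.8 ± 4.11 and 67.4 ± 10.3 FPKM (0.426).

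Asns, asparagine synthetase and a widely used readout of ATF4, stood at 47.4, 45.0 and 45.2 FPKM with TWEAK and at 45.6, 52.5 and 41.8 FPKM without. The TWEAK values lay inside the untreated range, and the log2 fold change was -0.02 (95% interval -0.21 to 0.18, limma adjusted p = 0.914). Slc3a2 and Slc7a5, the chains of a transporter of large neutral amino acids, were at 68.8 ± 3.44 and 74.0 ± 5.80 FPKM with TWEAK and at 63.4 ± 7.81 and 76.5 ± 13.5 FPKM without. Neither passed (limma adjusted p = 0.412 for Slc3a2 and 0.871 for Slc7a5), nor did Aldh18a1, an enzyme of proline synthesis, at 13.4 ± 1.62 and 13.8 ± 2.02 FPKM (0.864). Slc7a11, the cystine transporter, was below the expression minimum and was not tested, with 16, 14 and 4 reads in the TWEAK libraries and 24, 26 and 13 in the untreated ones; the authors' deposited table gives it an adjusted p of 0.356. Mthfd2, Aldh18a1 and Slc7a11 carry the overlapping-locus tag, and the use of strand in counting is not given in the sources used here, so reads of their neighbours cannot be told apart.

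Among the 12 stress regulators, Ddit4 rose and 0 fell in limma (8.33% called, against 15.1% of all tested genes). With the replicate block 4 passed (33.3%, against 27.9% of all genes). The median log2 fold change was 0.00, with 6 values above and 6 below 0. Atf4 itself stood at 109, 112 and 104 FPKM with TWEAK and at 117, 116 and 95.9 FPKM without. The TWEAK values lay inside the untreated range, with a log2 fold change of -0.02 (95% interval -0.21 to 0.18, limma adjusted p = 0.923). Ddit3, which encodes the pro-apoptotic factor CHOP, was at 25.0, 20.5 and 21.2 FPKM with TWEAK and at 22.0, 20.2 and 16.2 FPKM without. Within every trial TWEAK was the higher, but the groups overlapped (log2 fold change 0.19, limma adjusted p = 0.305, or 0.0688 in the replicate-block fit). A second gene entry named Ddit3 overlaps it and was listed at 0 in all 6 libraries, and both carry the overlapping-locus tag.

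Ddit4, also known as REDD1, encodes an inhibitor of the growth kinase complex mTORC1 (chromosome 10, 59785491 to 59787656). It had 35.7, 38.2 and 31.6 FPKM with TWEAK and 27.0, 29.6 and 24.2 FPKM without. The groups did not overlap, and the ratio within trials was 1.32, 1.29 and 1.31. The log2 fold change was 0.37 (SE 0.09, 95% interval 0.16 to 0.58, limma adjusted p = 0.0277). The call was lost without TWEAK replicate 1 (adjusted p = 0.0535) or 2 (0.115) and without untreated replicate 1 (0.0758) or 3 (0.0848). Over the 6 fits that each left out 1 library, the log2 fold change of Ddit4 ran from 0.301 to 0.447. Sesn2, another inhibitor of mTORC1, had 6.81, 8.10 and 4.22 FPKM with TWEAK and 5.63, 6.15 and 3.19 FPKM without. Trial 3 was the lowest in both groups, so the groups overlapped, while TWEAK was higher by 1.21-fold, 1.32-fold and 1.32-fold within trials (log2 fold change 0.30, limma adjusted p = 0.423, or 0.00592 in the replicate-block fit). Sesn2 carries the overlapping-locus tag.

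Chac1, a glutathione-degrading enzyme that is strongly induced by ATF4 and CHOP in stressed cells (chromosome 2, 119181710 to 119184862), had the lowest fold change of the 39. It was at 7.43, 5.52 and 4.14 FPKM with TWEAK and at 10.1, 10.7 and 5.94 FPKM without. TWEAK in trial 1 exceeded untreated in trial 3, so the groups overlapped, and the ratio within trials was 0.739, 0.513 and 0.698. The log2 fold change was -0.56 (SE 0.22, limma adjusted p = 0.120, or 0.000397 in the replicate-block fit); the authors' deposited table gives -0.64 with an adjusted p of 0.0177. Vldlr, a lipoprotein receptor, had 3.86, 2.72 and 2.24 FPKM with TWEAK and 3.99, 3.81 and 3.60 FPKM without. Its TWEAK library of trial 1 lay within the untreated range and the others below it (log2 fold change -0.31, limma adjusted p = 0.162, or 0.0248 in the replicate-block fit).

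Trib3, a pseudokinase induced by CHOP, was low, at 2.07 ± 0.504 FPKM with TWEAK and 2.39 ± 0.668 without. Both groups had their lowest value in trial 3, and they overlapped (limma adjusted p = 0.629). The hormone-like stress factor Gdf15, at 2.85, 3.09 and 1.87 FPKM with TWEAK and 3.03, 3.68 and 2.03 FPKM without, had its lowest values in trial 3 as well (0.710). Fgf21, another secreted stress factor, was much higher, at 42.4 ± 7.24 and 45.4 ± 5.50 FPKM (0.644). Ppp1r15a, the phosphatase subunit GADD34 that reverses eIF2 phosphorylation, was at 10.3 ± 0.831 and 10.2 ± 1.25 FPKM (0.915). The ATF4 partner Cebpg, at 7.32 ± 0.623 and 6.48 ± 0.269 FPKM (0.233), and the small chromatin protein Nupr1, at 23.0 ± 0.908 and 21.7 ± 1.42 FPKM (0.502), did not pass either.

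**Figure D3:**
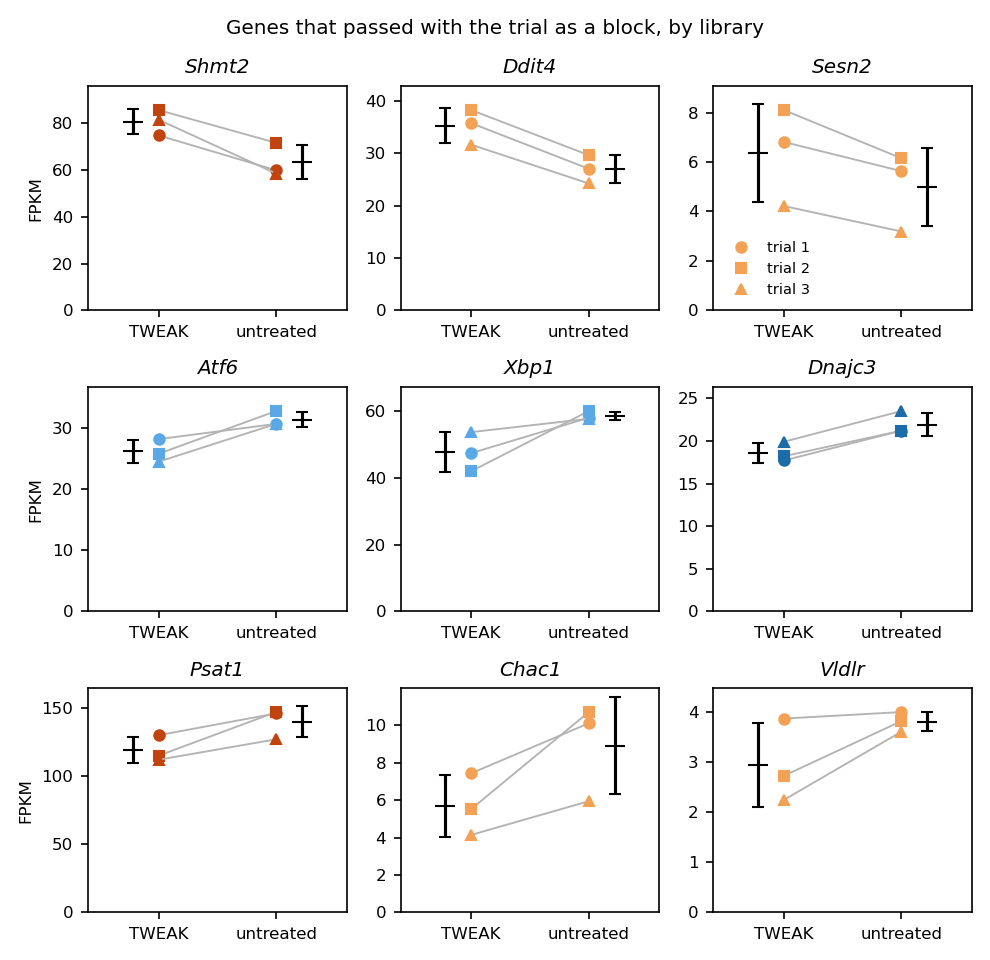
FPKM of the 9 genes that passed with the trial as a block, TWEAK left and untreated right, with 1 line per trial and the mean ± SD beside each group. The lines of Shmt2, Ddit4 and Sesn2 all fall from left to right and those of Atf6, Xbp1, Dnajc3, Psat1, Chac1 and Vldlr all climb. Trial 3 lies lowest in both groups for Sesn2, Chac1, Ddit4, Psat1 and Vldlr.

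Trial 3 stood apart from trials 1 and 2 for the chaperones and for the ATF4-type genes. In trial 3, 13 of the 14 chaperones and folding enzymes were above the mean of trials 1 and 2 in both TWEAK and untreated libraries (92.9%, against 32.9% of all tested genes), and 0 were below it in both. The ATF4-type genes stood the other way: 15 of 20 were below that mean in both groups (75.0%, against 29.7% of all tested genes) and 0 were above it in both. The median difference of trial 3 from the other trials on the log2(FPKM + 1) scale was 0.25 in TWEAK and 0.10 in untreated libraries for the chaperones. It was -0.15 and -0.26 for the ATF4-type genes, and 0.01 and 0.00 for all genes. Of the 5 sensors and regulators, unlike the chaperones, 3 were below that mean in both groups (60.0%, against 29.7% of all tested genes) and 0 were above it in both. This pattern was looked for after the values were seen, and the genes of each arm are no independent replicates.

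An F test of the trial terms in the replicate-block fit, also added after the values were seen, called 5 of the 39 genes (12.8%, against 5.47% of all genes): Sesn2, Chac1, Gdf15, Trib3 and Manf (limma adjusted p = 0.000667, 0.00536, 0.009, 0.0236 and 0.0181). The number called moved with the setting, for these genes and for all genes alike. Without a filter on low values 0 of the 40 and 0 of all tested genes passed. It was 11 (28.2%, against 11.9% of all genes) without untreated replicate 2, 10 (25.6%, against 10.6%) without TWEAK replicate 2 and 10 (25.6%, against 9.84%) with limma-voom on recovered reads. It was 9 (23.1%, against 5.85%) without untreated replicate 1 and 3 (7.69%, against 2.73%) without TWEAK replicate 3. Manf had 76.7 FPKM in the TWEAK library of trial 3, against 57.7 and 59.3 in TWEAK trials 1 and 2. In untreated libraries it had 79.2 FPKM in trial 3, against 60.3 and 65.8 in trials 1 and 2. Trial 3 held 30092467 reads in its TWEAK library, against 29981239 and 34318993 in trials 1 and 2, and 40921672 in its untreated library, against 33496146 and 33598113. The summed muscle markers were at 7701 FPKM in the TWEAK library of trial 3, the highest of the TWEAK libraries, and at 7685 FPKM in the untreated one, the lowest of the untreated libraries. The part of depth or of muscle markers in the pattern was not tested.

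**Figure D4:**
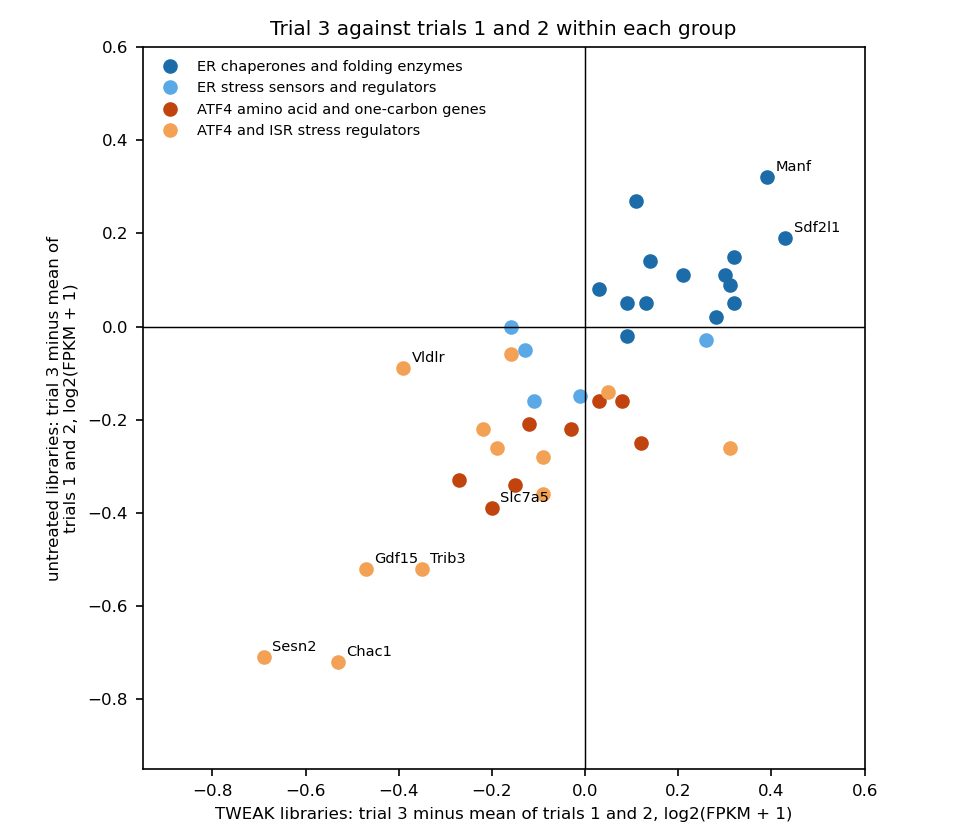
Difference of trial 3 from the mean of trials 1 and 2 on the log2(FPKM + 1) scale, in TWEAK libraries (x axis) and untreated libraries (y axis), 1 point per tested gene. Chaperones and folding enzymes lie in the upper right with 1 exception, and 15 of 20 ATF4-type genes lie in the lower left, with Sesn2 and Chac1 farthest out.

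Wider lists of the same and neighbouring pathways were read beside the 40 genes. Over 10 lists with 186 tested genes, 21 passed (11.3%, against 15.1% of all genes), 13 higher and 8 lower with TWEAK. Of 22 other ER folding and oxidation genes, 25 ER translocation genes and 18 genes of eIF2 kinases and translation control, limma called 0. Under an unadjusted p of 0.05 there were 1, 3 and 1. With limma-voom on recovered reads 0 passed in each list, against 16.6% of all genes. The replicate block called 2, 3 and 1 (9.09%, 12.0% and 5.56%, against 27.9% of all genes). Of 22 genes of ER-associated degradation 1 fell (4.55%, while 6.10% of all tested genes fell). This was Edem3, a mannosidase-like factor, at 24.1 ± 0.800 FPKM with TWEAK and 31.1 ± 1.99 in untreated libraries (limma adjusted p = 0.0104, and 0.0559 without TWEAK replicate 2). In trial 3, 22 of the 25 translocation genes were above trials 1 and 2 in both groups (88.0%) and 12 of 20 aminoacyl-tRNA synthetases were below in both (60.0%), against 32.9% and 29.7% of all genes.

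In the list of ER stress transduction, 3 of 17 rose and 3 fell (35.3% in all, against 15.1% of all tested genes), and leaving out single libraries gave 2 to 4 calls. The 2 came without TWEAK replicate 2 or untreated replicate 1 (11.8%, against 6.61% and 8.61% of all genes). Traf2, an adaptor shared by IRE1 and TNF receptors, had 25.6, 26.6 and 27.6 FPKM with TWEAK and 14.3, 14.0 and 14.1 FPKM without, a 1.88-fold difference with no overlap (limma adjusted p = 5.86e-05). Wfs1, an ER membrane protein that limits ATF6 signalling, was at 32.7 ± 2.18 FPKM with TWEAK and 49.3 ± 2.66 without (0.00138). The ER-localised caspase gene Casp12 and the death receptor gene Tnfrsf10b rose 1.39-fold and 1.36-fold, and Stc2, a secreted PERK target, and the pro-apoptotic Bcl2l11 fell, with log2 fold changes of -0.56 and -0.27. The calls of these last 4 were lost without TWEAK replicate 2 or untreated replicate 1 (limma adjusted p from 0.0757 to 0.145), and each also without at least 1 of the other libraries.

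A wider list held further genes of amino acid and folate metabolism, and whether ATF4 drives them was not tested. Of its 19 tested genes, 3 rose and 2 fell. That is 26.3% of the list, against 15.1% of all tested genes, and leaving out TWEAK replicate 2 left 2 of the 5 calls (10.5%, against 6.61% of all genes). Shmt1, the cytosolic counterpart of Shmt2, had 5.14, 6.41 and 6.58 FPKM with TWEAK and 2.27, 2.78 and 2.81 FPKM without, a 2.30-fold difference (limma adjusted p = 0.000594). Mthfd1l and Mthfd1, which like Shmt1 encode folate enzymes, rose 1.46-fold and 1.41-fold, and their calls were lost without TWEAK replicate 2 (0.0501 and 0.0618), that of Mthfd1 also without untreated replicate 1 (0.0543). The alanine aminotransferase gene Gpt2 was at 31.9 ± 3.63 FPKM with TWEAK and 45.0 ± 3.06 without (0.00853), and the glutamine transporter gene Slc38a2 at 74.0 ± 2.02 and 92.7 ± 6.05 FPKM (0.0158, and 0.0799 without TWEAK replicate 2). Of 20 aminoacyl-tRNA synthetases 1 rose (5.00%, while 8.98% of all tested genes rose). This was Vars, the gene of the valine enzyme, at 47.5 ± 4.70 FPKM with TWEAK and 29.7 ± 2.97 without (0.00265).

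Of 15 other ATF4 and ISR factors, 2 rose and 1 fell (20.0% in all, against 15.1% of all tested genes). Atf3, a stress-induced partner of ATF4, was at 2.19, 1.59 and 1.30 FPKM with TWEAK and at 4.10, 3.30 and 2.76 FPKM without, with every TWEAK library below every untreated one (limma adjusted p = 0.0117). The autophagy receptor gene Sqstm1 and the mitochondrial protease gene Lonp1 rose by log2 fold changes of 0.29 and 0.28, and both calls were lost without TWEAK replicate 2 (0.0655 and 0.109) or untreated replicate 1 (0.0961 and 0.0791) or 3 (0.0662 and 0.0753), that of Sqstm1 also without TWEAK replicate 1 (0.0508) or untreated replicate 2 (0.0711).

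Chaperones outside the ER were looked at for comparison. Of 17 cytosolic heat shock genes 1 fell (5.88%, while 6.10% of all tested genes fell). This was the small heat shock protein gene Hspb8, at 173 ± 15.7 FPKM with TWEAK and 230 ± 7.56 in untreated libraries (limma adjusted p = 0.0117, and 0.0612 without TWEAK replicate 2). With the replicate block 2 of the 17 rose and 4 fell (35.3% in all, against 27.9% of all genes). Of 11 mitochondrial chaperones and proteases 4 rose and 0 fell (36.4%, while 8.98% of all tested genes rose). Without TWEAK replicate 2 or untreated replicate 2 the count was 1 (9.09%, while 3.92% and 5.52% of all genes rose). The mitochondrial protease gene Htra2 was at 47.9 ± 3.66 FPKM with TWEAK and 34.0 ± 2.37 without (0.00490), and the chaperonin genes Hspd1 and Hspe1, which share a promoter region, rose 1.38-fold and 1.36-fold. The Hspd1 call was lost without TWEAK replicate 2 (0.0567) or untreated replicate 2 (0.0556). That of Hspe1 was lost without TWEAK replicate 2 (0.0808) or 3 (0.0547) or untreated replicate 1 (0.0832) or 2. The other was Clpp, a mitochondrial protease subunit named here after its values were seen, with a log2 fold change of 0.26 (limma adjusted p = 0.0353). That call held only without TWEAK replicate 1, with adjusted p from 0.0703 to 0.136 when any other library was left out.

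**Figure D5:**
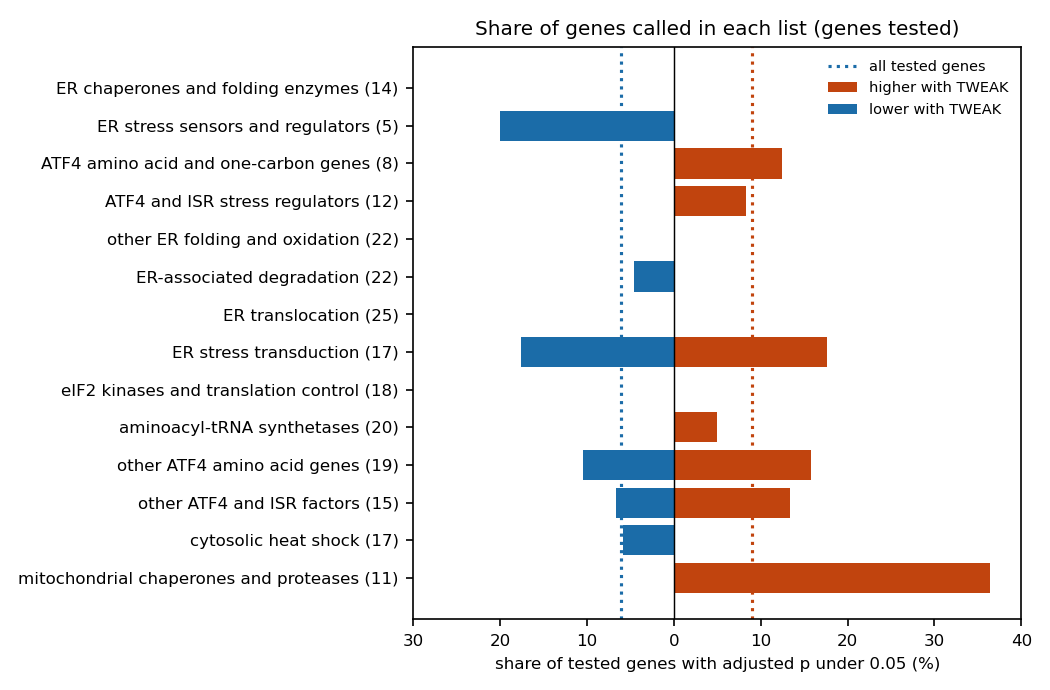
Share of tested genes of each list with a limma adjusted p under 0.05, higher with TWEAK to the right and lower to the left, with the number tested in brackets and dotted lines at the shares of all tested genes. The ER chaperone, ER folding, translocation and eIF2 lists have no bar, and the mitochondrial chaperones reach 36.4% on the right.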

How the data were processed

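Poly(A)-selected RNA was sequenced in 3 libraries of TWEAK-treated and 3 of untreated C2C12 myotubes. The submitters' processing notes name HTSeq 0.6.1p2, Trim Galore 0.5.0, DESeq2 1.22.2 and STAR 2.6.0c with build GRCm39, but no settings or strand use. Per the file headers, the deposited values are FPKM for each library. The table also holds the authors' own comparison, per the file headers: a mean normalized count (a signal that was not used as a result), a log2 fold change with its standard error, a test score, and a p-value before and after adjustment.

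Whole reads were recovered from the FPKM steps, with a common factor chosen for 294 of 12770 tested genes. Each of the 126386 values over 0 matched its recovered number to a relative 1e-06. The numbers were fitted to the same values, so this match was fixed in advance and is no check of them. The recovered reads gave the depths and the limma-voom alternative. The main test was limma-trend (limma 3.58.1, R 4.3.3) on log2(FPKM + 1), which understates changes of low genes, keeping genes that averaged 0.5 FPKM or more. Two-sided p-values were adjusted by the Benjamini-Hochberg method over all tested genes. Folds are ratios of mean FPKM. The test was tried on simulated data first.

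Trial numbers were taken to pair libraries: deviations from group means correlated at 0.473, 0.218 and 0.434 within trials 1, 2 and 3. This rests on the data, not on the labels. The 40 genes, the wider lists, the tests and the alternatives were chosen with earlier results of these data known. Named genes are all 40, and up to 3 risen and 3 fallen genes per wider list by adjusted p. All per-sample columns were matched to samples by title. Promoters came from the RefSeq table (GRCm38.p6), matched by symbol for 36 of 40 genes. Plots used Python 3.11.15 with matplotlib 3.10.9.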

Additional observations from a re-analysis of the deposited data

How the results depend on the processing

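Counts of called genes moved with the settings. With the replicate block they were 3563 for all genes, 9 for the 40 genes, 1 for chaperones, 2 for sensors, 2 for amino acid and folate genes, 4 for stress regulators and 40 for the wider lists. Without a filter on low values, which adds genes to the adjustment, they were 801 for all genes (3.05%) and 7 for the wider lists (3.66%). For the 40 genes the count was 0, with 0 sensors, 0 amino acid genes and 0 stress regulators. In that setting 6 of the 40 genes were under an unadjusted p of 0.05. Sensors called were 2 with a minimum of 1 FPKM, 2 with centred libraries and 2 with limma-voom on recovered reads, Xbp1 being added. Without trial 3, an alternative chosen after seeing the data, 0 amino acid genes and 2 stress regulators (16.7%) passed, against 12.6% of all genes. Leaving out single libraries gave 844 to 2101 calls for all genes (6.61% to 16.5%) and 0 to 4 for the 40 genes (0.00% to 10.3%). For the wider lists it gave 8 to 21 (4.30% to 11.3%). By group it gave 0 to 1 for chaperones (at most 7.14%) and 0 to 1 for sensors (at most 20.0%). It gave 0 to 1 for amino acid genes (at most 12.5%) and 0 to 2 for stress regulators (at most 16.7%). A pseudocount of 0.1 left the count of the 40 genes at 3 (7.69%, against 14.8% of all genes).

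Shmt2, Ddit4, Atf6 and the genes named from the wider lists kept their sign when any single library was left out. Genes near 0 changed sign in such fits, and none of those values passed. The ranges of their log2 fold changes were -0.172 to 0.015 for Pdia6, -0.132 to 0.037 for Calr, -0.148 to 0.007 for Dnajb9, -0.130 to 0.049 for Dnajb11, -0.218 to 0.072 for Sdf2l1, -0.214 to 0.023 for Manf and -0.083 to 0.087 for Creld2. They were -0.090 to 0.012 for Eif2ak3, -0.092 to 0.070 for Asns, -0.148 to 0.054 for Aldh18a1, -0.168 to 0.086 for Slc7a5, -0.109 to 0.032 for Atf4, -0.068 to 0.094 for Ppp1r15a, -0.204 to 0.038 for Fgf21 and -0.287 to 0.043 for Gdf15. Without trial 3, Creld2 was at -0.034, Slc3a2 at -0.002 and Ppp1r15a at -0.005. The cause of these changes was not tested. With 3 libraries per group the median 95% interval of the 39 genes reached 0.21 to either side on the log2 scale, before any adjustment for the number of genes. Among the 40 genes the replicate block ended none of the 3 calls and added 6, given above.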
